A study of Mus musculus with 6 samples.

Results

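Chromosome 7 of the mouse carries Fzd4, the gene that is deleted in one of the groups compared here, and 10 named genes on the same chromosome were followed with all their probe sets: Ntrk3, Aen, Hddc3, Homer2, Alg8, Myo7a, Ppme1, Trim6, Trim12a and Rassf10. They were chosen from the difference between the groups on the same 6 arrays and from their place on the chromosome, so their group differences are a description of that choice and carry no test. All 10 of the 18193 genes on the table were measured, by 27 of 45037 probe sets. The arrays held whole kidneys of mouse embryos at E13.5. A group of 3 arrays was wild type for Fz4 and null for Fz8 (Fz4+/+Fz8-/-, here Fz8-null, arrays C1, C2 and C3). A group of 3 arrays was null for both (Fz4-/-Fz8-/-, here double-null, arrays M1, M2 and M3). Loss of Fz8 is thus shared by both groups, and no array was wild type for Fz8. Strains C57BL/6, 129X1/SvJ and 129S1/Sv all contributed to the mice. No treatment is named, and the labels do not say how many embryos stand behind an array, or how litters fell to the groups. Values are RMA log2 intensities, on which a step of 1 is a doubling; ± is the SD of 3 arrays and a difference is double-null minus Fz8-null, with its SE from a limma fit across all probe sets.

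Fz4, the product of Fzd4, is a Frizzled receptor for Wnt ligands and for Norrin. A targeted allele is usually made in embryonic stem cells of one mouse strain, and when it is bred into another strain the DNA around it travels with it, so homozygotes for the allele and their wild-type littermates can differ in strain along a stretch of that chromosome. On oligonucleotide arrays a base that differs from the probe lowers the signal of that probe whatever the amount of transcript, while a regulatory variant changes the transcript itself. A probe set reads a short part of a transcript, usually near its 3' end, so several probe sets of a gene read different parts of it. The strain of each chromosome stretch in these kidneys and the letters of the probes were not used here, and their part in the differences below was not tested.

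The targeted gene followed its labels. The brightest Fzd4 probe set read 10.74, 10.86 and 10.93 in C1, C2 and C3 and 5.29, 4.96 and 3.89 in M1, M2 and M3. Kidney identity was visible in both groups: 9 of 10 kidney markers were measured, all 9 read at least 6 in a group, and their mean over the list ran from 9.38 to 9.46 in Fz8-null and from 8.68 to 9.07 in double-null arrays. All 9 stood lower in double-null kidneys, with a median difference of -0.32. Over all genes with a mean of at least 6 in a group, other than the 10, Fzd4 and Fzd8, the median was -0.15. Of other cell types, the 6 measured liver markers had list means of 5.69 to 6.45 in Fz8-null and 6.92 to 9.65 in double-null arrays, and the 7 measured erythroid markers 6.62 to 6.86 against 6.10 to 8.94, with Rhag near background. No liver marker was near background, here a mean under 4 in both groups. In both lists M1 was the lowest double-null array for every marker. Alb read 7.82, 10.82 and 11.03 in M1 to M3. Hbb-bh1 read 7.68, 11.25 and 11.32, with M1 below all Fz8-null arrays (9.93 to 10.29). The 5 skeletal muscle markers, none near background, all stood lower in double-null kidneys, with overlapping groups: their list means were 6.27 to 7.76 against 5.18 to 6.72 and their median difference was -0.76. In whole kidneys fewer cells of a type and less RNA per cell cannot be told apart, and the part of these other cells in the differences below was not tested.

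Along the chromosome the genes lay on both sides of Fzd4 (chr7:89404366-89410110 in GRCm38.p6), between 7.75 and 23.5 Mb from it by gene midpoints. Ntrk3, Aen, Hddc3 and Homer2 stood at the lower coordinates, 11.0, 10.5, 9.06 and 7.75 Mb away. Alg8, Myo7a, Ppme1, Trim6, Trim12a and Rassf10 stood at the higher ones, 7.97, 8.68, 10.9, 14.8, 14.9 and 23.5 Mb away. Between Homer2 and Alg8, the stretch that holds Fzd4, lay 15.7 Mb without a named gene. By the brightest probe set of each, 9 of the 10 genes were lower in double-null kidneys and 1, Hddc3, was higher, and in all 10 the 3 arrays of one group lay clear of the 3 arrays of the other. Over all genes 12.2% lay lower without overlap and 6.68% higher without overlap, a background from which nothing is read here, since the genes were named from this contrast.

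**Figure D1:**
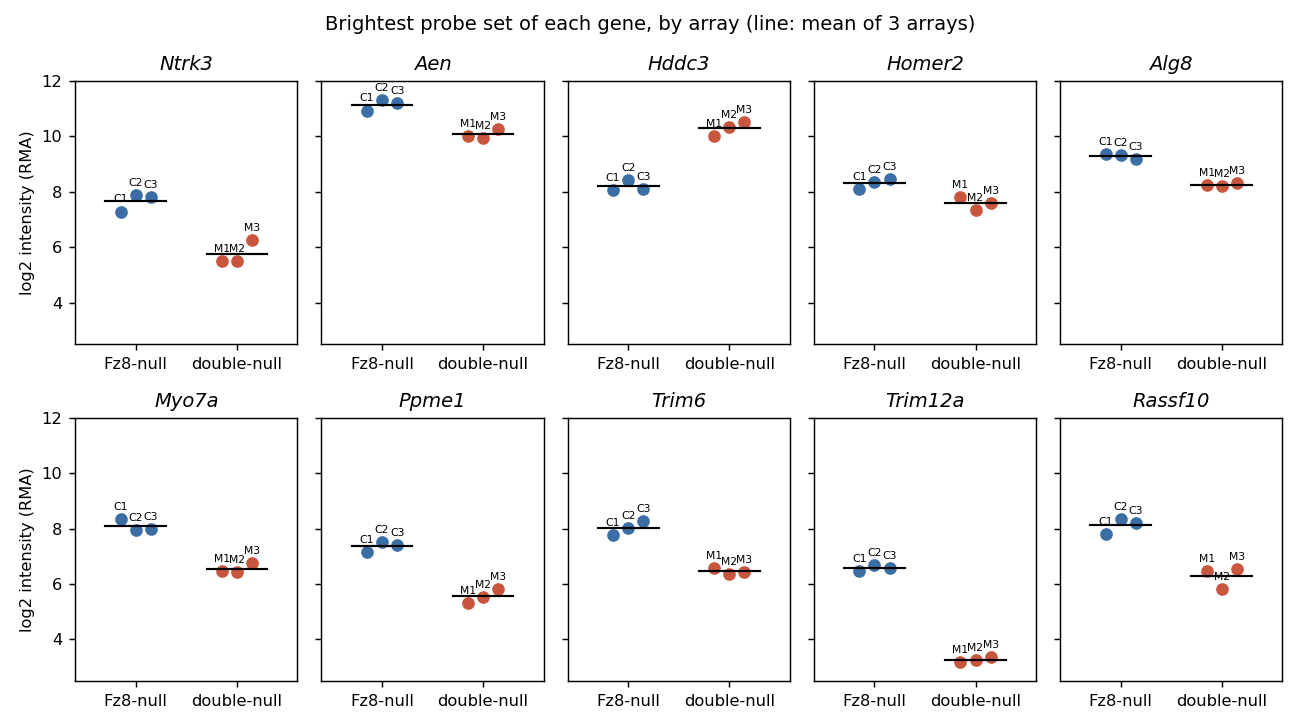
RMA log2 intensity (vertical axis) of the brightest probe set of each of the 10 genes on each of the 6 arrays, with Fz8-null arrays (C1 to C3) in blue, double-null arrays (M1 to M3) in red and a line at each mean of 3. Only Hddc3 stands higher in double-null kidneys, and Trim12a has the widest gap.

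Trim12a and Trim6 belong to the tripartite motif family, whose members are mostly E3 ubiquitin ligases; Trim12a is a rodent relative of the restriction factor Trim5, and Trim6 acts in interferon signalling. The genes are near neighbours, with midpoints 0.081 Mb apart, on opposite strands (Trim6 at chr7:104218795-104235152, Trim12a at chr7:104299893-104315558). The brighter Trim12a probe set (1437432_a_at) read 6.47, 6.68 and 6.57 in C1 to C3 and 3.19, 3.24 and 3.35 in M1 to M3, a difference of -3.31 (SE 0.13; 6.57 ± 0.11 against 3.26 ± 0.08, n = 3 in each). The double-null values are near the background of the arrays, so this difference is bounded by it. The groups stood 3.12 apart at their nearest arrays, while the arrays of a group differed by 0.21 at most. The other Trim12a probe set (1420648_at) read 4.70, 4.18 and 4.17 against 5.01, 4.73 and 4.27, where the groups overlapped at a dim level (difference 0.32, SE 0.24). Trim6 read 7.77, 8.00 and 8.26 in C1 to C3 and 6.57, 6.37 and 6.44 in M1 to M3 with its brighter probe set (1424448_at; difference -1.55, SE 0.17; 8.01 ± 0.24 against 6.46 ± 0.10). Its dimmer probe set (1453624_at) leaned the other way, at 4.05, 3.72 and 3.42 against 4.85, 5.21 and 4.03 (difference 0.96, SE 0.33), with M3 just inside the Fz8-null range. In each of the pair, then, the probe set with a Fz8-null mean above 6 was lower in every double-null array, and the other was not. For Trim12a that level was met in Fz8-null arrays alone. In double-null arrays this probe set, at 3.26, was dimmer than the other, at 4.67. The contrast of bright and dim thus follows the choice of genes, and nothing is read from it. TRIM genes of this cluster are close relatives, and probes for one may also read another.

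Hddc3, an HD-domain hydrolase that acts on the alarmone ppGpp in vitro and on NADPH, was the exception in direction. Its brighter probe set (1428692_at) read 8.08, 8.42 and 8.11 in C1 to C3 and 10.03, 10.34 and 10.51 in M1 to M3, a difference of 2.09 (SE 0.18; 8.20 ± 0.19 against 10.29 ± 0.24), or 4.25-fold. Its other probe set (1452875_at) carries the same sequence accession in the platform annotation, yet it read 5.34, 5.16 and 5.10 against 4.64, 5.15 and 5.27 (difference -0.18, SE 0.20), with overlapping groups. Hddc3 (chr7:80343075-80346716) lies between Aen and Homer2, 1.44 and 1.31 Mb from them, and both of these were lower.

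The reference promoters of these 3 genes are shown because the TRIM pair were neighbours that were lower together and Hddc3 was the only one of the 10 that was higher. They come from RefSeq for GRCm38.p6, 5' to 3' on the gene's strand. The RefSeq window holds the 250 bases before 1 start site of the gene, and what is shown is the part of them outside the gene span given above: the last 62 bases for Hddc3 and 63 for Trim12a lie within that span and are left out, and 0 for Trim6. GRCm38.p6 is the C57BL/6J sequence and so 1 of the 3 strains behind these mice; capitals mark CG dinucleotides. The stretches are chr7:80342887-80343074 (plus strand) for Hddc3, chr7:104315559-104315745 (minus strand) for Trim12a and chr7:104218545-104218794 (plus strand) for Trim6.
Hddc3: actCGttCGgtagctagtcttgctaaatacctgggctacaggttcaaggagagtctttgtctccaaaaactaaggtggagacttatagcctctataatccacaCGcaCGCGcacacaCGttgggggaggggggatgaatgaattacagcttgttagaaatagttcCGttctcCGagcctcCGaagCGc
Trim12a: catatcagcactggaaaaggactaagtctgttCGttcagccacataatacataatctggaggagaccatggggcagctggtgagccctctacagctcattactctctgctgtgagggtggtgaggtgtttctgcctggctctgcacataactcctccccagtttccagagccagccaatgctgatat
Trim6: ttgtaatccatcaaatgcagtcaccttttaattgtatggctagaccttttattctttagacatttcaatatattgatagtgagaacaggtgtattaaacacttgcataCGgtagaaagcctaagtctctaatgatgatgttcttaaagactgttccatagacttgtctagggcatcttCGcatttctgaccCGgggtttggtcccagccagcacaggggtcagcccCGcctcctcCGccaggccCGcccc
Hddc3 held 10 CG dinucleotides in its 188 bases, Trim6 6 in 250 and Trim12a 1 in 187. In the full windows of 300 bases, which run from 250 before to 50 after the start site, Trim12a had 1, fewer than most promoters: 5.43% of the 32851 windows had fewer. Hddc3 had 20 (73.5% had fewer) and Trim6 8 (51.4%). RefSeq windows matched 8 of the 10 genes, with 11 windows in all. Because Fz4 is a Wnt receptor, they were searched on both strands for the TCF/LEF core, spelled CTTTG followed by A or T and again by A or T. A match was found in 1 of the 11 windows, one of the pair of Aen windows, against 16.9% of all windows of this length. A narrower spelling, CTTTGAT alone, was tried after that result had been seen, and it was found in 0 of the 11 windows and in 3.73% of all windows. A match or its lack describes these letters in these windows alone.

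Alg8 and Ppme1 are enzymes read by 1 probe set each. Alg8, an endoplasmic reticulum glucosyltransferase that builds the precursor of N-glycans, read 9.36, 9.34 and 9.17 in C1 to C3 and 8.24, 8.23 and 8.32 in M1 to M3 (difference -1.03, SE 0.13; 9.29 ± 0.10 against 8.26 ± 0.05). The arrays of each group lay within 0.18 of each other. Ppme1, the methylesterase that demethylates the catalytic subunit of protein phosphatase PP2A, read 7.15, 7.51 and 7.42 in C1 to C3 and 5.32, 5.55 and 5.83 in M1 to M3 (difference -1.80, SE 0.19; 7.36 ± 0.19 against 5.57 ± 0.26). The nearest arrays of the groups, C1 and M3, stood 1.32 apart. Myo7a, the unconventional myosin of hair cells and retina whose loss causes deafness, was also read by 1 probe set. It stood at 8.34, 7.95 and 7.99 against 6.47, 6.42 and 6.77 (difference -1.54, SE 0.17; 8.09 ± 0.21 against 6.55 ± 0.19). For these 3 genes the arrays hold no further probe set with which to compare.

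Aen and Rassf10 were the genes whose probe sets all lay on the same side. Aen, an exonuclease gene induced by p53 that promotes apoptosis, had 4 probe sets, all lower. The brightest (1423957_at) read 10.94, 11.31 and 11.19 in C1 to C3 and 10.02, 9.95 and 10.28 in M1 to M3 (difference -1.06, SE 0.16; 11.15 ± 0.19 against 10.08 ± 0.18). The others stood at -2.12 (SE 0.34; 1450506_a_at), -1.54 (SE 0.40; 1451186_at, dim) and -0.60 (SE 0.31; 1437373_at), the last with M3 at 7.10, above all Fz8-null arrays, and M1 and M2 at 6.23 and 5.84. The sizes thus spread over 1.52 between readable probe sets while the sign was shared. Rassf10, of the Ras association domain family, had 3 probe sets, each with all double-null arrays below all Fz8-null arrays. The brightest (1457140_s_at) read 7.79, 8.36 and 8.19 against 6.48, 5.83 and 6.53 (difference -1.83, SE 0.25; 8.11 ± 0.29 against 6.28 ± 0.39). The next (1453201_at) stood at -1.88 (SE 0.30), and the third (1429567_at), which shares its sequence accession, at -0.75 (SE 0.25), with groups 0.17 apart at their nearest arrays.

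Ntrk3 encodes the receptor tyrosine kinase TrkC, the receptor of the neurotrophin NT-3, and was read by 8 probe sets, the most of any of the 10 genes. The brightest (1425071_s_at) read 7.29, 7.88 and 7.81 in C1 to C3 and 5.51, 5.52 and 6.25 in M1 to M3 (difference -1.90, SE 0.27; 7.66 ± 0.32 against 5.76 ± 0.43). Another (1433825_at) read 7.16, 7.77 and 7.70 against 4.56, 4.79 and 5.86 (difference -2.47, SE 0.36), and a further one (1425070_at) stood at -1.05 (SE 0.17). In these 3 the groups did not overlap, and C1 was the lowest Fz8-null array in each. The fourth readable probe set (1447723_at) did not follow them: it read 6.27, 5.87 and 6.21 in C1 to C3, 7.43 and 7.55 in M1 and M2 but 4.72 in M3 (difference 0.45, SE 0.73). The control probe set of the B1 repeat, a short interspersed element found within many transcripts, had the same order among double-null arrays, with M1 at 11.83, M2 at 12.08 and M3 at 10.85, and 10.67 to 11.02 in Fz8-null arrays. Its part in that Ntrk3 reading was not tested. The remaining 4 Ntrk3 probe sets were dim and stood between -0.41 and 0.16, all with overlapping groups.

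Homer2, a postsynaptic scaffold that binds metabotropic glutamate receptors, had the smallest difference of the 10. Its brightest probe set (1457671_at) read 8.12, 8.36 and 8.45 in C1 to C3 and 7.80, 7.35 and 7.61 in M1 to M3 (difference -0.72, SE 0.17; 8.31 ± 0.17 against 7.59 ± 0.23), with 0.32 between the nearest arrays. Its next probe set (1424367_a_at) read 6.84, 6.48 and 6.24 against 5.92, 5.97 and 6.53 and overlapped (difference -0.38, SE 0.23), and a dim one stood at 0.04. Both Ntrk3 and Homer2 are best known from neurons. The 6 measured neuron and neural crest markers had list means of 5.65 to 5.72 in Fz8-null and 5.70 to 6.14 in double-null arrays. Of the 6, 5 stood higher and none was near background, but only 2 read at least 6 in a group. The brightest, Elavl4, was the one that stood lower, at 8.58 against 8.17 with overlapping groups. The 6 stroma markers ran from 10.34 to 10.41 against 10.36 to 10.58, and the 5 macrophage markers, given here beside the TRIM genes, from 7.58 to 7.74 against 7.65 to 8.75. Their part in these differences was not tested.

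**Figure D2:**
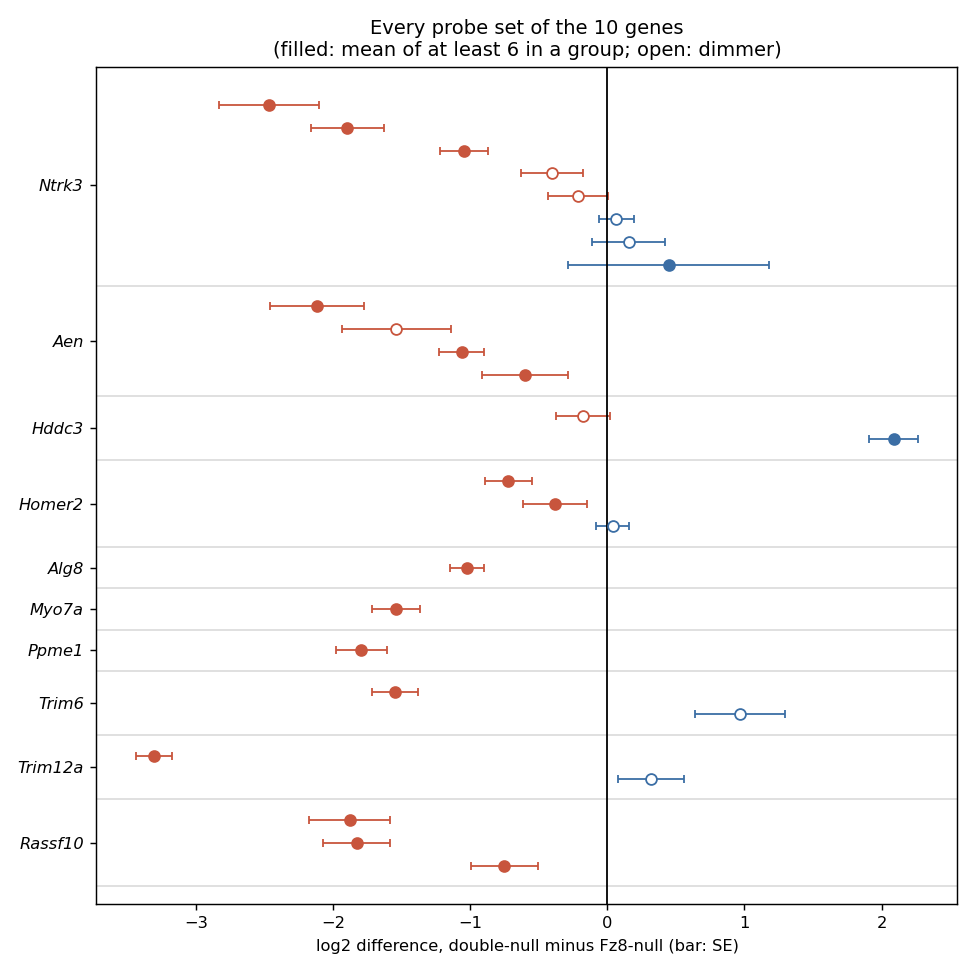
Log2 difference, double-null minus Fz8-null, with its SE (horizontal axis) for all 27 probe sets of the 10 genes, in order along the chromosome; filled points have a mean of at least 6 in a group and open points are dimmer. Aen and Rassf10 lie wholly below 0, Ntrk3 runs from -2.47 to 0.45, and the dim probe sets of Hddc3, Trim6 and Trim12a stand on the other side of 0 from the bright ones.

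Agreement between probe sets could be read for only some of the genes. A probe set was counted as readable with a mean of at least 6 in a group, which held for 18 of the 27. Of these, 16 stood below 0 and 2 above, and 14 were lower and 1 higher without overlap, against a background of 15.6% and 4.24% of readable probe sets. Several passed the limit through the Fz8-null group alone, as Trim12a did (6.57 against 3.26). The genes were also named from this contrast, so nothing is read from these counts, and the shared signs below are a description. Of the 9 dim ones, 8 overlapped. For 6 genes (Hddc3, Trim12a, Trim6, Ppme1, Myo7a and Alg8) a single probe set was readable, so the arrays give no second reading; 3 of them had a dim probe set that did not share the difference. For the other 4 the readable probe sets shared their sign in Aen (3 of 3), Rassf10 (3 of 3) and Homer2 (2 of 2), and in Ntrk3 for 3 of 4. Sizes differed more than signs. A gene was called split where its readable differences spread by 1 or more; Aen (1.52), Ntrk3 (2.92) and Rassf10 (1.13) were split and Homer2 (0.34) was not. Over all 5177 genes with at least 2 readable probe sets 6.92% were split. Larger differences leave more room for a spread, and the genes were named for large differences, so nothing is read from the 3 of 4. At a readable mean of 7 or more, only 1 of the 10 was split.

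The genes that were not named give a view of the same region. Within 25 Mb of Fzd4 lay 329 other measured genes, of which 1, Ctr9, passed limma's test across all genes at an adjusted p of 0.05. That is 0.304%, against 0.0056% of unnamed genes outside the window. The share over all genes was 0.0275%, which counts Ctr9 itself, 2 of the 10 and a targeted gene. By limma 62 had an unadjusted p under 0.05, which is 18.8% against 15.3% of all genes. Groups did not overlap for 52 lower (15.8%, background 12.2%) and 26 higher (7.90%, background 6.68%), both above the background by an amount that was not tested. With the 10 kept, 61 of 339 were lower (18.0%) and 27 higher (7.96%), a rise set by the choice of genes. Of the 214 readable ones 1 was lower by 1 or more (0.467%, background 0.797%) and 4 were higher by as much (1.87%, background 2.24%). The median difference was -0.07 in the window and -0.06 over all genes outside the named ones. Of the 9 lower named genes 8 were lower by 1 or more, and Ctr9, lower than any of them, is not among the named: with the 10 kept, 9 of 224 readable genes were lower by 1 or more (4.02%) and 5 were higher (2.23%). Within 25 Mb of Fzd8, which is null in both groups, 0 of 80 readable genes were lower by 1 or more and 2 were higher. M3 weighed on these counts: without it 57 of the 329 genes passed (17.3%, against 18.1% elsewhere), and 114 were lower without overlap (34.7% against 34.1%). Without C1, 89 were lower without overlap (27.1% against 23.0%), and without M1, 2 genes passed.

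**Figure D3:**
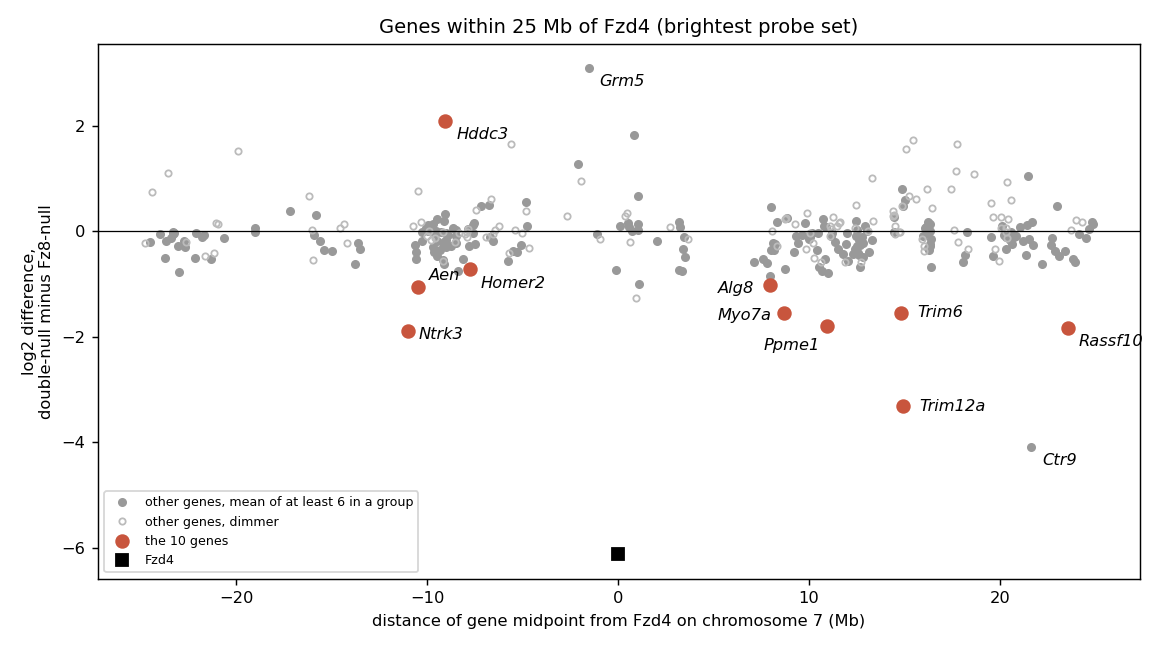
Log2 difference (vertical axis) against the distance of a gene's midpoint from Fzd4 in Mb (horizontal axis) for all genes within 25 Mb, 1 probe set a gene; red points are the 10 named genes, the square is Fzd4, grey filled points are other genes with a mean of at least 6 in a group and open points dimmer ones. Most unnamed genes lie close to 0; Ctr9 at -4.10 and Grm5 at 3.09 stand apart.

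Ctr9, a subunit of the PAF1 complex of transcription elongation, lay 21.6 Mb from Fzd4 and had the widest spread between readable probe sets of the unnamed genes in the window. The called one (1422679_s_at) read 11.15, 11.22 and 11.56 in C1 to C3 and 6.91, 7.26 and 7.47 in M1 to M3, whereas its other readable probe sets stood between -0.53 and -0.22 with overlapping groups. The next largest unnamed genes that were lower without overlap were Tmem126b at -0.99, 1.07 Mb from Fzd4, Kctd21 at -0.85, C2cd3, a centriole protein gene, at -0.78 and Aldh1a3, a retinaldehyde dehydrogenase gene, at -0.78. On the higher side were Grm5, a metabotropic glutamate receptor gene 1.55 Mb from Fzd4, at 3.09, Lyve1, a lymphatic endothelial receptor gene, at 1.05, Trim34a at 0.81, Ccdc89 at 0.67 and Trim30a at 0.60. None of these 9 passed over all genes. Grm5 varied widely within groups, at 5.74, 4.12 and 3.14 in C1 to C3 and 8.04, 8.40 and 5.84 in M1 to M3 (SE 0.86). Its M3 value was thus barely clear of C1 and well below M1 and M2. The other Grm5 probe set was dim, and its groups overlapped (difference 1.28). The difference of Homer2 was the smallest of the 10, and 15 unnamed readable genes in the window differed by more than it did; just above it stood Tmem135 and just below it Capn5, each at -0.72.

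Of 99 unnamed genes in the window with at least 2 readable probe sets 6 were split (6.06%), against 6.86% of such genes outside it, a difference that was not tested. With the named genes kept, 9 of 103 were split (8.74%), above the 6.86% outside, a rise set by the choice of genes. The side of the difference thus depended on leaving them out. Among unnamed genes it also changed with the arrays. Of the 6 fits without 1 array the share was higher in the window in 4 and lower in 2. It was 8.08% against 5.35% without M1, and 13 of 98 (13.3%) against 16.1% without M3. With split taken as a spread of 1.5 it was 4.04% against 1.73%. Trim34a, which lies between Trim6 and Trim12a, was split in sign: 1424857_a_at read 7.02, 6.05 and 6.27 in C1 to C3 and 4.89, 4.59 and 4.41 in M1 to M3 (difference -1.81, SE 0.28), and 1426093_at read 7.02, 6.93 and 7.26 against 8.05, 7.93 and 7.65 (difference 0.81, SE 0.17). Both of its probe sets were free of overlap, in opposite directions. Of the other wide splits, Ctsc and Far1 each had a probe set that was high in M1 and M2 and low in M3, as the odd Ntrk3 probe set was. In Ctsc, the gene of the protease cathepsin C, 1446834_at read 7.79, 7.90 and 5.88 in M1 to M3, and in Far1 1453550_a_at read 8.18, 8.50 and 6.33. In Tlnrd1, by contrast, 1416398_at was higher in all 3 double-null arrays, at 6.16, 6.14 and 6.62 against 4.69 to 5.22.

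Taking the nearest 2 measured genes on each side of each gene gave 38 distinct genes, of which 0 differed by 1 or more in either direction by the brightest probe set. Of their 44 readable probe sets 1 did, that of Trim34a at -1.81 given above, beside -1.55 for Trim6. Limma called 0 of them over all genes and 9 had an unadjusted p under 0.05 (23.7%, against 15.3% of all genes). Without overlap 7 were lower (18.4%, background 12.2%) and 7 higher (18.4%, background 6.68%), and their median was -0.06. Around Hddc3, Unc45a, Rccd1, Man2a2 and Fes, all within 0.04 Mb of it, stood at -0.22, 0.33, -0.03 and -0.16, each with overlapping groups. Around Aen, the other exonuclease gene Isg20 stood at 0.76 and Det1 at -0.52, each without overlap. Around Alg8, Kctd21 stood at -0.85 and Gab2, a signalling adaptor gene, at -0.61, while Ndufc2, a subunit of respiratory complex I, stood at 0.47; none of the 3 overlapped. Next to the TRIM pair, Trim34a, Trim12c and Trim30a stood at 0.81, 0.49 and 0.60, higher without overlap, and Trim5 at 0.48 with overlap.

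**Figure D4:**
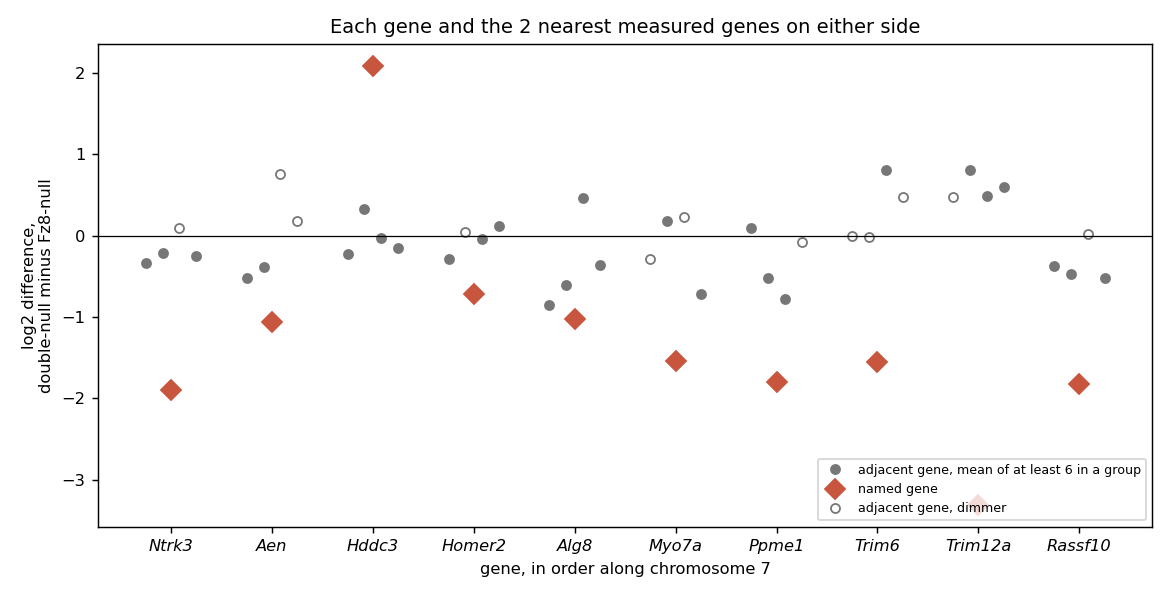
Log2 difference (vertical axis) of each of the 10 genes (diamonds, in order along chromosome 7) and of the nearest 2 measured genes on each side of it (circles; filled with a mean of at least 6 in a group, open where dimmer). The adjacent genes lie between -0.85 and 0.81, and those beside Trim6 and Trim12a stand at or above 0 except for a dim pair at -0.01.

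Relatives and partners of the 10 genes, taken from 9 lists by function, showed no call. Of 89 listed genes 75 were measured; limma called 0 over all genes, and 18 had an unadjusted p under 0.05 (24%, against 15.3% of all genes). Groups did not overlap for 12 lower (16%, background 12.2%) and 9 higher (12%, background 6.68%), and the median was -0.14. In the TRIM list, 8 of the 11 measured genes lie within 25 Mb of Fzd4, 2 were lower and 3 higher without overlap, and Trim21, a cytosolic antibody receptor gene, stood at -0.39. Of the neurotrophin list, Ntrk2, the TrkB gene, stood at 0.50 and Ngfr, the shared neurotrophin receptor gene, at -0.71, against -1.90 for Ntrk3; Ntf5, the gene of neurotrophin NT-4/5, stood at 0.49. In the Homer list Homer3 stood at -0.44 and Homer1 at -0.07, against -0.72 for Homer2, and Grm5 at 3.09. The PP2A list, with the opposing methyltransferase gene Lcmt1 and the phosphatase subunits, had 1 of 9 genes free of overlap, Ppp2r1b at -0.16. Of 16 genes of N-glycan assembly, all readable, 13 stood below 0, with a median of -0.16. That is near the median of -0.15 over all readable genes other than the 10, Fzd4 and Fzd8. The share of all genes below 0 was not counted. Without overlap 1 was lower, Alg2 at -0.38, and 1 higher, Alg13 at 0.20, against -1.03 for Alg8. In the list of hair cell myosins and Usher proteins, Ush1c, whose product works with Myo7a, stood at -0.80 and Whrn at -0.58. Of the 8 measured genes of this list 5 stood below 0 and 3 above, with a median of -0.09. Pcdh15 at 1.52 and Myo3a at 1.32 were higher, with overlapping groups. Of the RASSF list 9 of 10 stood below 0 (median -0.27, beside the same -0.15), with Rassf4 at -0.85 and Rassf5 at -0.55. In the list of p53 targets and exonucleases of the Aen family Mdm2 stood at -0.24, Bbc3 at -0.48 and Isg20 at 0.76. Hddc2, the relative of Hddc3, stood at 0.26.

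Within groups the arrays kept an order that is also seen over the whole table. A choice by the group difference is not free of the spread within groups. Several probe sets of a gene are also counted separately, so the shares are a description. M3 was the highest of the 3 double-null arrays in 14 of the 18 readable probe sets of the 10 genes (77.8%), against 57.2% of all 24214 readable probe sets. C1 was the lowest Fz8-null array in 12 of 18 (66.7%), against 44.9% of all. Leaving out any 1 array cannot turn the sign of a difference whose groups do not overlap, so only the sizes are given: Trim12a ranged from -3.36 to -3.26, Hddc3 from 1.98 to 2.22, Ntrk3 from -2.15 to -1.77 and Homer2 from -0.83 to -0.60. The pattern of Trim12a over the 6 arrays was most like that of Mycn (Pearson r = 0.997), Ctr9 (0.996) and Mybpc1 (0.991) among 11164 genes with a mean of at least 6, and that of Hddc3 was most like S100a10 (0.971), 4933433G19Rik (0.964) and Glrx (0.963). Over 6 arrays in 2 groups such values follow the group difference. Only Ctr9 of these 6 genes lies on chromosome 7, and Mycn differed by -0.36 only.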

How the data were processed

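Per the labels, total RNA of whole kidneys (100 ng a sample) was labelled with biotin and hybridised to Affymetrix MOE430.2 arrays, 1 sample an array and 3 in each group. The authors deposited log2 probe-set intensities normalized with RMA, per the submitters' processing notes (version not given in the sources used here), and they were used as they stand. RMA summarises the probes of a set, so single probes cannot be seen. Medians of the arrays were 6.02 to 6.14. Of 45101 probe sets 64 controls were set aside; 34945 of the rest carry 1 gene in the platform annotation, 932 several and 9160 none. Each gene was read by its brightest probe set. Differences came from limma 3.58.1 (R 4.3.3; lmFit and eBayes, Benjamini-Hochberg over all genes, two-sided, threshold 0.05), which was checked on simulated data. Positions are those of GRCm38.p6 in RefSeq.

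The genes and lists were chosen with earlier results of these data known. All 10 genes were named with every probe set. Of other genes within 25 Mb of Fzd4 the text names those past the threshold, the 5 largest without overlap in each direction among readable ones, and the 5 widest splits; of each list, those past the threshold and up to 4 others of largest difference without overlap. Genes adjacent to the 10, Tmem135, Capn5, Homer1, values of marker lists, the window around Fzd8, window counts with the 10 genes kept, the B1 repeat values, the promoters shown and the motif were chosen after values were seen; the motif was searched in both spellings given. Ccdc83, Nox4, Pcdh15, Myo3a and the counts within 5 Mb of Fzd4 were also chosen after values were seen. The labels do not say that samples came from separate litters, so the SE speaks for arrays only. It is limma's moderated SE, in which the spread of a probe set is drawn toward that of all probe sets. Arrays carry no depth, and their number limits the precision. Alternatives were quantile normalization, equal medians, leaving out each array, a replicate block, the mean of all probe sets, array weights, eBayes with a trend and robust, a minimum mean of 6, other windows, and other limits for readable and split.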

Additional observations from a re-analysis of the deposited data

How the results depend on the processing

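The sign of the 10 differences is fixed by the choice of genes when an array is left out, and the replicate block leaves the differences as they are, so nothing is read from either. Of the other alternatives, 7 values moved by more than the spread between replicates: 6 with the mean of all probe sets, which put Hddc3 at 0.95, Trim12a at -1.50, Trim6 at -0.29, Aen at -1.33, Ntrk3 at -0.67 and Homer2 at -0.36, and Alg8 with quantile normalization at -0.90. The count of genes past the threshold was 5; it was 7576 with array weights and 1 with the mean of all probe sets, and leaving out single arrays it ran from 2 to 3292. Same-numbered arrays did not pair (residual correlations of 0.19, -0.20 and 0.17), and with the replicate block 3 genes passed. In the 25 Mb window, leaving out single arrays gave 1 to 57 genes past the threshold, 55 to 114 lower and 30 to 63 higher without overlap, 4 to 13 split genes, and 2 to 3 split genes of the 10. A window of 10 Mb held 0 genes past the threshold (24 at an unadjusted p under 0.05 by limma), 21 lower, 12 higher and 2 split; the whole chromosome held 176 lower, 81 higher and 13 split. The number of unnamed genes was 124 within 10 Mb, 329 within 25 Mb and 1409 on the chromosome, and the shares differed too. Lower without overlap were 16.9%, 15.8% and 12.5% of them, and higher 9.68%, 7.90% and 5.75%. Whether these shares change with distance was not tested. With a minimum mean of 6, 12 genes of the 25 Mb window were higher without overlap. At a readable mean of 7, 3 genes of the window and 1 of the 10 were split. For other values moved by these settings the cause was not tested. The signal over background limits the reading of the dim probe sets and of Trim12a in double-null kidneys.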
